A study of Mus musculus with 4 samples.

Results

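Spleen cluster 5 was the deposited cluster of splenic CD4+ T cells for which the transcription factor genes Nr4a1, Nr4a3, Egr2 and Egr3 and the chemokine genes Ccl3, Ccl4 and Xcl1 had been proposed as markers. Its members were all cells that carried the number 5 in the cluster column of the deposited spleen cell table. They were 420 of 10912 spleen cells and of 14875 cells in the whole series, 192 of 4995 cells (3.84%, exact 95% interval of Clopper and Pearson 3.33 to 4.41) in one spleen library and 228 of 5917 cells (3.85%, 3.38 to 4.38) in the other.

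The study profiled regulatory T (Treg) cells of C57BL/6 mice by droplet single-cell RNA sequencing of the 3' ends of transcripts. Live cells positive for CD4, TCRβ and YFP (yellow fluorescent protein) were sorted at more than 95% purity, and a total of 12000 cells is given as the number prepared. Spleen libraries came from mice at steady state, 1 from mice with the genotype ICOS WT and 1 from mice with the genotype ICOS-deficient, which are titled ICOS FC. The same 2 genotypes were sampled from cervical draining lymph nodes (LN) 1 day after challenge with oxazolone, a skin sensitiser. The sources used here do not give the driver of YFP, the structure of the FC allele, the age of the mice or how many were pooled. Each group was 1 library, so no test between groups was possible, and every interval covers counting error only.

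A T cell whose receptor binds antigen switches on the Nr4a nuclear receptors and the Egr zinc finger proteins within a short time, and in Treg cells, which depend on the transcription factor Foxp3, the same genes serve as a record of recent receptor signalling. Sustained signalling is also followed by growth: Myc and Irf4 raise ribosome production, nutrient uptake and metabolism before a cell divides. Chemokines such as Ccl3, Ccl4 and Xcl1 are secreted by activated T and natural killer cells and draw in other leukocytes. ICOS is a costimulatory receptor of T cells that signals mainly through phosphoinositide 3-kinase.

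In the text, pairs of values are for the library labelled ICOS WT and then for the library labelled ICOS FC. The cells of cluster 5 carried medians of 7186 (range 2609 to 28267) and 5923 (924 to 51866) unique molecular identifiers (UMIs, 1 per captured transcript), against 4993 and 4321 in the other spleen cells. They summed to 1644678 and 1674265 UMIs. The median share of mitochondrial UMIs was 3.64% and 3.69%. The targeted gene went against the labels: Icos stood at 111 and 258 counts per 1000000 UMIs (CPM) outside cluster 5 and at 128 and 260.4 CPM within it, and the library labelled ICOS FC was the higher one. A 3' tag outside a deleted part checks nothing, and the libraries are therefore named by their labels. Whether the 2 labels are exchanged was not tested, and an exchange would turn every direction between the libraries. No barcode of cluster 5 in the library labelled ICOS WT recurred in the other spleen library, and 1 barcode of cluster 5 in the library labelled ICOS FC did. The 2 spleen libraries shared 8 barcodes in all.

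The 4 regulators among the markers were at their highest level in cluster 5. Nr4a1 (chr15:101254269-101274795 on GRCm38, a nuclear receptor) was at 264 and 154 CPM, from 434 and 258 UMIs, against 7.44 and 11.4 CPM in all other spleen cells. Egr3 (chr14:70077203-70082614) was at 198 and 95.6 CPM against 4.74 and 6.96. Egr2 (chr10:67535475-67542188), which with Egr3 curbs T cell responses, was at 126 and 74.1 CPM against 5.87 and 8.16. Nr4a3 (chr4:48045153-48086447) was at 123 and 56.1 CPM against 3.09 and 5.42. As a ratio of CPM on the log2 scale these were 5.15 and 3.75 for Nr4a1, 5.39 and 3.78 for Egr3, 4.42 and 3.18 for Egr2, and 5.31 and 3.37 for Nr4a3. Since the cluster was made from these cells' own expression, the contrast with other clusters is a description and not a test. Both libraries gave the same order, with every one of the 4 genes highest in cluster 5 and second in cluster 1.

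Their close relatives were likewise higher in cluster 5. Nr4a2 (chr2:57106830-57124003), the third member of the nuclear receptor family, was at 40.7 and 16.7 CPM in cluster 5 against 0.744 and 1.99 CPM elsewhere, from 67 and 28 UMIs. Egr1, an immediate early gene, was at 311 and 161 CPM against 28.5 and 32.5. Egr1 was the member with most signal outside the cluster, at 78.4 and 77.3 CPM in cluster 1. Cluster 1 held 19.7 and 24.7 CPM of Nr4a1, 23.8 and 33.1 of Egr2, 16.3 and 24.2 of Egr3 and 8.01 and 9.52 of Nr4a3. Below cluster 1, Nr4a1 ran in the library labelled ICOS WT from 17.3 CPM in cluster 6 (4 UMIs) to 2.41 in cluster 4, and in the library labelled ICOS FC from 10.7 to 5.17 CPM, again in clusters 6 and 4. With 1 library per group no spread between samples stands behind this order.

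**Figure D1:**
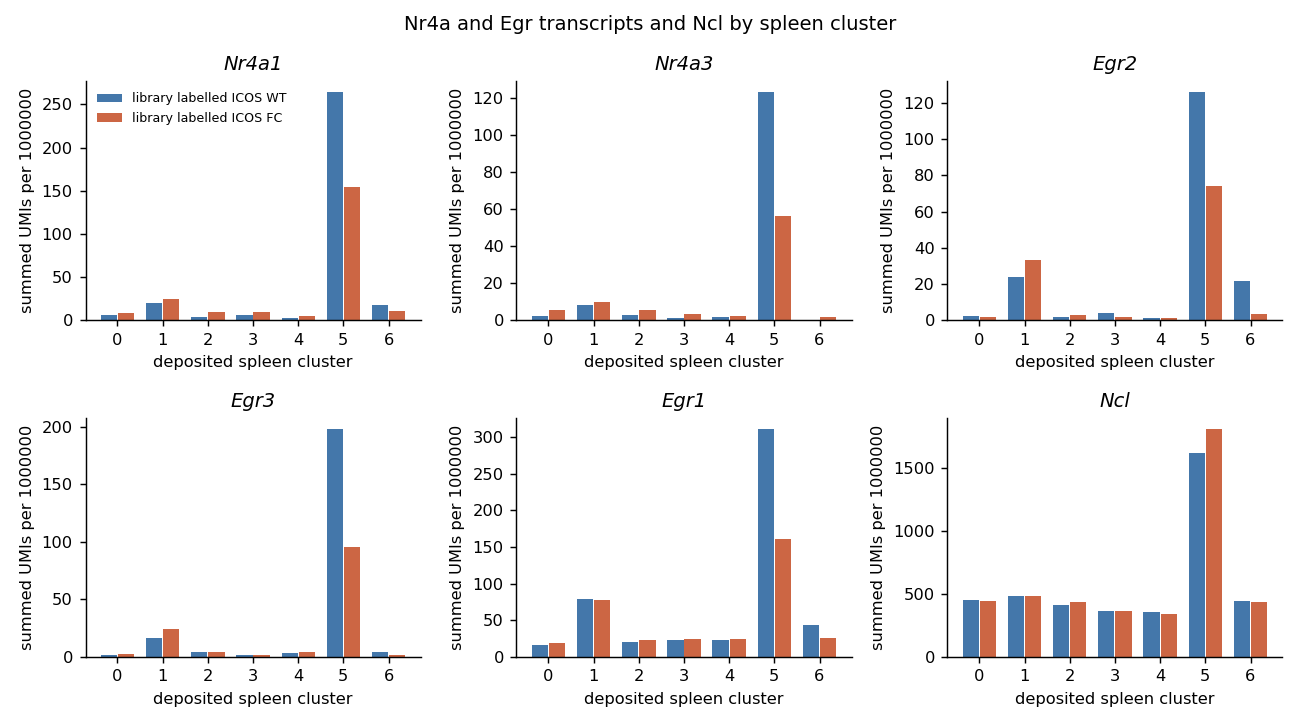
Levels of Nr4a1, Nr4a3, Egr2, Egr3, Egr1 and Ncl in CPM (linear axis from 0) in the 7 spleen clusters, 1 bar per cluster and library and no error bars, since each group was 1 library. Cluster 5 has the tallest bar of every gene in both libraries, and the 5 regulator genes are lower there in the library labelled ICOS FC while Ncl is not.

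The sequence just upstream of a start site is shown for Nr4a1, Nr4a2, Nr4a3 and Egr2, 4 of the 6 genes above that were high in cluster 5, from RefSeq promoters on GRCm38.p6. Those of Egr1 and Egr3 are not shown. Capitals mark TGACG on either strand (CGTCA when read on the printed strand), the core of the cAMP response element, and in Egr2 also a CArG box, the element of serum response factor. The Nr4a1 stretch is chr15:101266596-101266845 (plus strand, inside an intron of a longer transcript), Nr4a2 is chr2:57124004-57124253 (minus strand, upstream of the gene), Nr4a3 is chr4:48045055-48045152 (plus strand, upstream) and Egr2 is chr10:67537739-67537868 (plus strand, intronic in a longer transcript).
Nr4a1: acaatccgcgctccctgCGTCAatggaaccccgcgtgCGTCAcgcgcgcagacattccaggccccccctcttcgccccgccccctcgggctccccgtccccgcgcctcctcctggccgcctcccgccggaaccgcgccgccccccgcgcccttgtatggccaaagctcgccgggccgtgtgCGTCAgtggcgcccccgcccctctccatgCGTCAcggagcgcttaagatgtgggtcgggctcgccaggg
Nr4a2: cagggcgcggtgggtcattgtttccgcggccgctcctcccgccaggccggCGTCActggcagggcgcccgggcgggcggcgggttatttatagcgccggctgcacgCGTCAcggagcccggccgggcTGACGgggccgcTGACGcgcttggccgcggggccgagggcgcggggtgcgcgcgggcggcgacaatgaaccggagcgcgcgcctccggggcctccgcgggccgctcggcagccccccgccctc
Nr4a3: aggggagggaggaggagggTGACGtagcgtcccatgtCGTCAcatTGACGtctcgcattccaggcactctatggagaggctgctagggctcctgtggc
Egr2: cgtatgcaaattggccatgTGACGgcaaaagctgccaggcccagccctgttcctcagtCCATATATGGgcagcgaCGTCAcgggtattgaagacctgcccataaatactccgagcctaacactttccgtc
The windows of 250 bases upstream of Nr4a1, Nr4a2 and Nr4a3 each held 4 matches to TGACG on either strand, 3 of which lie in the stretch of Nr4a3 shown. Of 32851 windows of that length in the RefSeq table, 17.8% held the motif and 45 (0.137%) held 4 or more matches. The Egr2 stretch held 2 matches and 1 CArG box, a motif found in 1.47% of windows. The windows of Ccl3 and Xcl1 held neither motif, nor did the Egr2 window at the gene's annotated start (chr10:67535249-67535498). The full element TGACGTCA, held by 1.55% of all windows, was in none of the windows of the genes named here. The motifs and, for Egr2, the start site were chosen after the genes were known, and a match is a description of the letters only.

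Read cell by cell, cluster 5 was not uniform. At least 1 UMI of Nr4a1 was found in 39.1% (32.1 to 46.3) and 28.9% (23.2 to 35.3) of its cells. The shares were 5.50% and 7.12% in cluster 1 and 2.96% and 4.15% in all spleen cells outside cluster 5. They were lowest in cluster 4, at 0.81% and 1.98%, where median depths were 5492 and 4845 UMIs. Each cell was also thinned to 2000 UMIs, which left out 0 and 2 cells of cluster 5. The shares were then 27.8% and 20.01% in cluster 5, 2.73% and 3.87% in cluster 1 and 0.36% and 0.88% in cluster 4. Of the 420 cells, 215 had no UMI of Nr4a1, Nr4a3, Egr2 or Egr3 and 143 had UMIs of 2 or more of these genes. Cells with 3 or 4 of the regulators were 58 of 192 (30.2%) and 39 of 228 (17.1%), while outside cluster 5 they were 15 of 4803 (0.31%) and 13 of 5689 (0.23%). Put the other way, cluster 5 contained 58 of 73 and 39 of 52 such spleen cells, and cluster 1 contained 13 and 12 of them. Cells with 3 or more of the regulators were thus a minority of the cluster in both libraries.

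A coarser cluster numbering in the same deposited table (resolution 0.5, where the numbers used for the clusters came at resolution 0.6) divided cluster 5, and this division was chosen for use after the data were seen. The cells with the coarser number 2, called subset 2 here, were 60 (31.3%, 24.8 to 38.3) and 49 (21.5%, 16.3 to 27.4). The cells with the number 5, called subset 5, were 105 (54.7%, 47.4 to 61.9) and 144 (63.2%, 56.5 to 69.4). The remaining 62 cells carried the numbers 0, 3 and 8. Subset 2 held 45 of the 58 and 32 of the 39 cells with 3 or more regulators. Its level of Nr4a1 was 910 and 693 CPM against 113 and 59.3 CPM in subset 5, and that of Egr3 842 and 509 against 37.6 and 16.4 CPM. Egr1 was at 1248 and 753 CPM against 73.4 and 53.0. The cells that shared the coarser number 2 but lay in cluster 1 had 31.6 and 35.5 CPM of Nr4a1, and 13 of 381 and 10 of 622 of them had 3 or more regulators.

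Subset 5 was set apart by genes of protein synthesis. Ncl (chr1:86344719-86359400), which encodes nucleolin, a protein of ribosome assembly, was at 2175 and 2127 CPM in subset 5 and at 545 and 599 CPM in subset 2. The listed Myc targets and ribosome biogenesis genes summed to medians of 198 and 195 UMIs per 10000 in the cells of subset 5 and to 76.6 and 82.0 in those of subset 2. For Nr4a1, Nr4a3, Egr2 and Egr3 together the medians were 0 and 0 in subset 5 and 22.1 and 14.5 in subset 2. Cells above the whole cluster's median in both sums were 33 of 192 and 36 of 228. Median depth also differed, at 9617 and 6653.5 UMIs in subset 5 and 5321.5 and 5085 in subset 2.

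**Figure D2:**
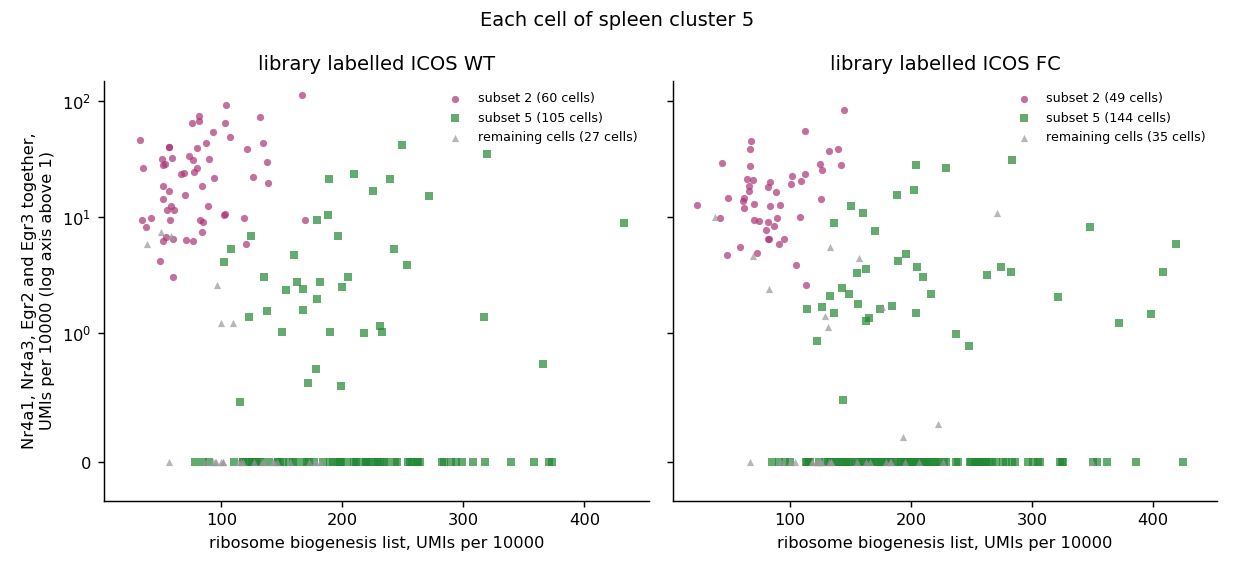
Each point is 1 cell of cluster 5, placed by its UMIs per 10000 in the Myc target and ribosome biogenesis genes (x axis) and in Nr4a1, Nr4a3, Egr2 and Egr3 together (y axis, linear below 1 and logarithmic above), 1 panel per library. The cells of subset 2 sit high and to the left, with median regulator sums of 22.1 and 14.5, and those of subset 5 lie to the right and mostly at 0.

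Between the subsets, 179 of 6065 genes (2.95%) were at least 2-fold higher in subset 2 in both libraries with a counting interval clear of equality, and 309 (5.09%) were higher in subset 5. Both subsets were defined by clustering the same cells, so these counts are descriptions. In the AP-1 and immediate early list, 9 of 19 members were higher in subset 2 and 0 in subset 5. Fos, a component of AP-1, was at 282 and 191 CPM in subset 2 and at 5.64 and 31.0 in subset 5. In the library labelled ICOS WT, 1 cell gave 56 of the 95 Fos UMIs of subset 2. Cd69, which encodes an early activation antigen that retains lymphocytes in tissue, was at 1029 and 768 CPM against 193 and 199. Zfp36, which encodes a protein that destabilises cytokine mRNAs, was at 477 and 326 CPM against 50.8 and 71.2. The phosphatase gene Dusp2, whose product switches off MAP kinases, was at 1337 and 1045 CPM against 349 and 354. Cd40lg, the ligand through which T cells activate B cells, was at 139 and 74.9 CPM against 37.6 and 12.8.

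Of 24 tested genes in the Myc and ribosome list, 19 were higher in subset 5 and 0 in subset 2. Npm1, a nucleolar chaperone, was at 3467 and 3383 CPM in subset 5 against 1147 and 1206 in subset 2. Odc1, the first enzyme of polyamine synthesis and a classical Myc target, was at 327 and 233 CPM against 68.2 and 33.7. Myc itself had opposite directions in the libraries, at 136 and 92.2 CPM in subset 5 against 213 and 59.9 in subset 2. Irf4 was not higher in subset 5, at 61.1 and 88.6 CPM against 65.2 and 127. Fabp5, a fatty acid binding protein, was at 193 and 194 CPM against 26.7 and 14.98. Tnfrsf4 and Tnfrsf9, the costimulatory receptors OX40 and 4-1BB, followed subset 5 as well, at 1268 and 1541 CPM against 563 and 513 for Tnfrsf4 and at 403.5 and 320 against 154 and 44.9 for Tnfrsf9. Of the genes of Treg identity 0 of 13 passed in either direction between the subsets.

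UMIs of the chemokine markers sat in very few cells. Ccl4 (chr11:83662584-83664683) had 21 UMIs in 3 cells and 320 UMIs in 4 cells of cluster 5. One cell of 21011 UMIs gave 19 of the 21, and it had UMIs of Foxp3 but of none of the 4 regulators. In the library labelled ICOS FC, 1 cell of 4135 UMIs gave 308 of the 320 Ccl4 UMIs and all 109 UMIs of Ccl3 (chr11:83647844-83649355), had UMIs of all 4 regulators and had none of Foxp3. Xcl1 (chr1:164931644-164935527) had 21 UMIs in 3 cells and 82 UMIs in 3 cells, of which 19 and 79 were in 1 cell each. Against this, the cell with most UMIs gave 7.4% and 7.4% of those of Nr4a1 and 9.4% and 17.0% of those of Nr4a3. No cell had all 7 markers, and 86 and 125 cells had none.

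**Figure D3:**
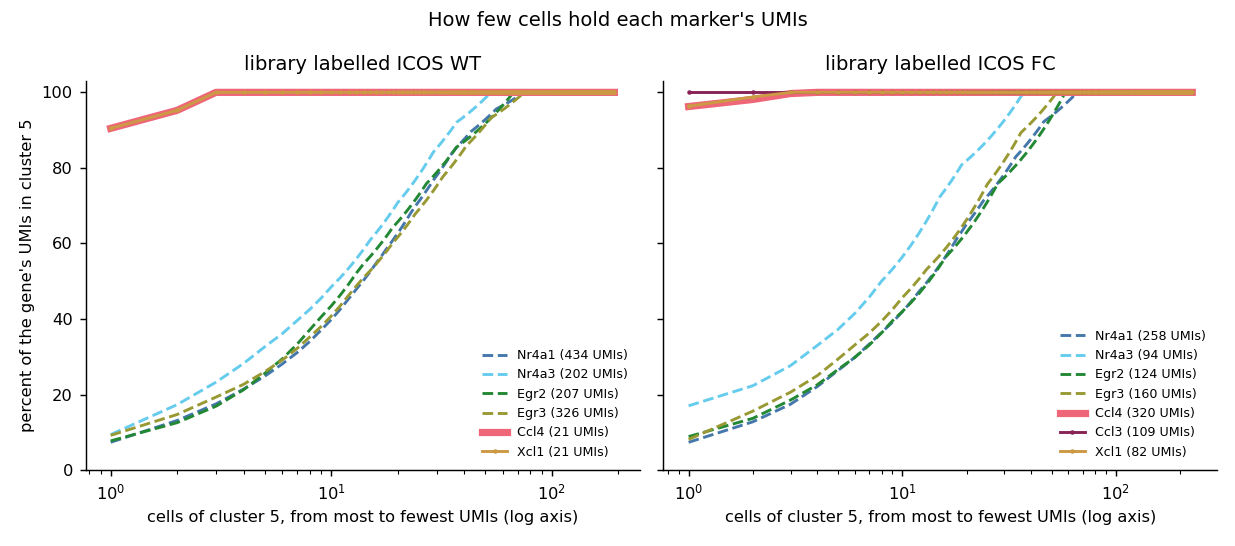
Cumulative percent of each marker's UMIs in cluster 5 (y axis) over cells ranked from most to fewest UMIs of that marker (x axis, logarithmic), 1 panel per library. Ccl4 and Xcl1 start at 90.5% or more with the first cell in both libraries, while Nr4a1, Nr4a3, Egr2 and Egr3 start at 17.0% or less.

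Against all other spleen cells, 373 of 5699 tested genes (6.55%) were higher in cluster 5 and 172 (3.02%) lower, by at least 2-fold in both libraries with counting intervals clear of equality and at least 20 CPM. With totals that left out ribosomal protein and mitochondrial genes the split was 363 higher and 282 lower. The median log2 ratio over all tested genes was 0.05 in each library. These ratios are against the pooled rest, and single clusters were compared after the values were seen. Of the 373 higher genes, 352 were above each of the other 5 clusters with at least 50 cells in each library, 184 of them by at least 2-fold, and of the 172 lower genes 145 were below each of them, in both libraries. In the Nr4a and Egr list 7 of 8 tested members were higher and 0 lower, with median ratios of 4.78 and 3.12; the seventh was Nab2, a corepressor of Egr proteins, named after its value was seen.

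Growth genes were higher almost throughout. In the Myc target and ribosome biogenesis list 22 of 23 tested members were higher and 0 lower, with medians of 1.69 and 1.76. Ncl was at 1621 and 1809 CPM against 425 and 425 elsewhere, and no other cluster was above 484 CPM in either library. Srm, which makes spermidine, was at 158 and 158 CPM against 31.4 and 32.0, and Odc1 at 235 and 180.4 against 47.2 and 34.8. Myc itself was at 134 and 78.2 CPM against 37.5 and 36.8. Shmt1, a folate cycle enzyme, was among the genes with the largest ratios, at 52.3 and 44.8 CPM against 2.86 and 2.86. Of 16 tested genes for glycolysis and transporters 5 were higher and 0 lower, among them the amino acid transporter gene Slc7a5 at 35.9 and 16.7 CPM against 4.11 and 4.36. Proliferation genes were higher in 4 of 12, namely Stmn1, Tuba1b, Mcm3 and Mcm5. With the deepest 5% of cells removed, Stmn1 was at a log2 ratio of -0.19 in the library labelled ICOS FC. The proliferation marker Mki67 was at 5.47 and 27.5 CPM against 7.24 and 9.55 and did not pass.

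Among the other transcription factors of receptor signalling, 6 of 18 were higher and 0 lower. Irf4, which links receptor signal strength to effector differentiation, was at 54.1 and 83.6 CPM against 8.58 and 13.0. Irf8 was at 125 and 59.7 CPM against 11.6 and 9.78. Batf, Bhlhe40, Nfkb2 and Myc completed the 6. Bhlhe40 was higher in cluster 1 than in cluster 5 in both libraries, at 46.8 and 95.7 CPM against 33.4 and 59.1, and Batf in the library labelled ICOS FC, at 252 CPM against 220.4. The AP-1 and immediate early list did not follow: 1 of 17 was higher (Gadd45b, at 152 and 137 CPM against 22.5 and 37.6), 2 were lower (Klf6 and Zfp36l2) and its medians were 0.36 and -0.35. Fos was at 62.6 and 60.3 CPM against 13.3 and 76.7, with the sign of the ratio opposite in the libraries. In the list of heat shock and dissociation stress genes, which such a sort can move, 5 of 13 were higher and 0 lower (medians 0.85 and 0.69), among them Hspa5 at 607 and 640 CPM against 233 and 254; the part of handling in the values of immediate early genes was not tested. Of 26 feedback inhibitors of the receptor 1 was higher, Rgs16 at 51.7 and 63.3 CPM against 9.08 and 17.5 (44.7 and 72.3 in cluster 1), and Socs3 and Dgka were lower.

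Of 22 activation and costimulatory receptor genes 6 were higher and 0 lower. Tnfrsf9 was at 314 and 226 CPM against 41.3 and 44.3, Tnfrsf4 at 951 and 1179.6 against 229 and 286, and Cd83 at 128 and 123 against 27.3 and 55.2. Cluster 1 alone was closer, with 166 and 161 CPM of Tnfrsf9, 679 and 841 of Tnfrsf4 and 132 and 231 of Cd83, the last above cluster 5 in both libraries. The cells of cluster 1 with the coarser number 2 had 971 and 1166 CPM of Tnfrsf4, near the levels of cluster 5. Il1r2, the decoy receptor for interleukin 1, was at 71.1 and 98.6 CPM against 6.30 and 17.9, and at 36.6 and 83.4 in cluster 1. Of 16 NF-kB inhibitors and targets 5 were higher, including Nfkbid at 168 and 101.5 CPM against 19.3 and 22.7 and the survival gene Bcl2a1b at 409.8 and 346 against 92.3 and 98.8 (314 and 304 in cluster 1). None of 8 inhibitory receptor genes passed against the pooled rest, with medians of 0.44 and 0.29, where 6.55% of all tested genes were higher and 3.02% lower. Cluster 1 alone held more than cluster 5 of Ctla4, at 215 and 326 CPM against 130 and 153.5. The same held for Pdcd1, at 215 and 77.8 CPM against 94.9 and 38.8, and for Lag3, at 67.0 and 198 against 31.0 and 74.7. Cd274 went the other way in the library labelled ICOS WT, at 24.5 CPM against 42.0. Of 10 chemokine and cytokine genes 5 were higher, of which Ccl4 and Xcl1 rested on the single cells described above. The others were Cxcl10, Tnf and Penk, the precursor of enkephalin, at 103 and 60.9 CPM against 19.3 and 8.80. Cluster 1 alone held 107 and 36.5 CPM of Penk, and in the library labelled ICOS FC more Cxcl10 than cluster 5, at 86.6 against 63.9 CPM.

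Of 16 tested genes of resting and recirculating T cells, 8 were lower and 0 higher than in the pooled rest, with medians of -1.12 and -1.21, and 3 of the 8 were below each of the other 5 clusters in both libraries. S1pr1, the receptor by which lymphocytes leave lymphoid tissue, was at 48.6 and 47.8 CPM against 218 and 196. Klf2, which drives S1pr1, was at 209.8 and 229 CPM against 820.3 and 800.3. Cluster 1 alone held 164 and 281 CPM of Klf2, and 55.3 and 74.0 of S1pr1. S1pr1 and Il7r were among the 3 genes below each other cluster, and Klf2 was not. Igfbp4, Ly6c1 and Dapl1 were lower than the pooled rest too, but lower still in cluster 1. Igfbp4 was at 58.4 and 28.1 CPM in cluster 5 and at 7.28 and 11.6 in cluster 1. Il7r, the receptor chain for interleukin 7, was at 134 and 141 CPM against 435 and 412. Tsc22d3, a glucocorticoid target, was at 49.9 and 40.6 CPM against 252 and 206, and Txnip, which restrains glucose uptake, at 89.4 and 99.1 against 384 and 367. S100a4 and S100a6 of the effector Treg list were lower than the pooled rest as well. S100a4 was at 108 and 28.1 CPM, below clusters 1 (149 and 82.4) and 2 (1310.5 and 795) and above clusters 0, 3 and 4 (3.67 to 13.5), and S100a6 likewise was not below each other cluster, while Tnfrsf9, Tnfrsf4 and Batf of that list were higher. Of 12 interferon response genes 2 were lower, Irf7 and Rtp4, and 0 higher. Of 11 apoptosis genes 1 was higher, the survival gene Bcl2l1 at 44.4 and 30.5 CPM against 12.3 and 13.6. Of 4 follicular Treg genes 0 passed. Over all 5699 tested genes 6.55% were higher and 3.02% lower, so counts of 0 or 1 in lists this short say little about them.

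**Figure D4:**
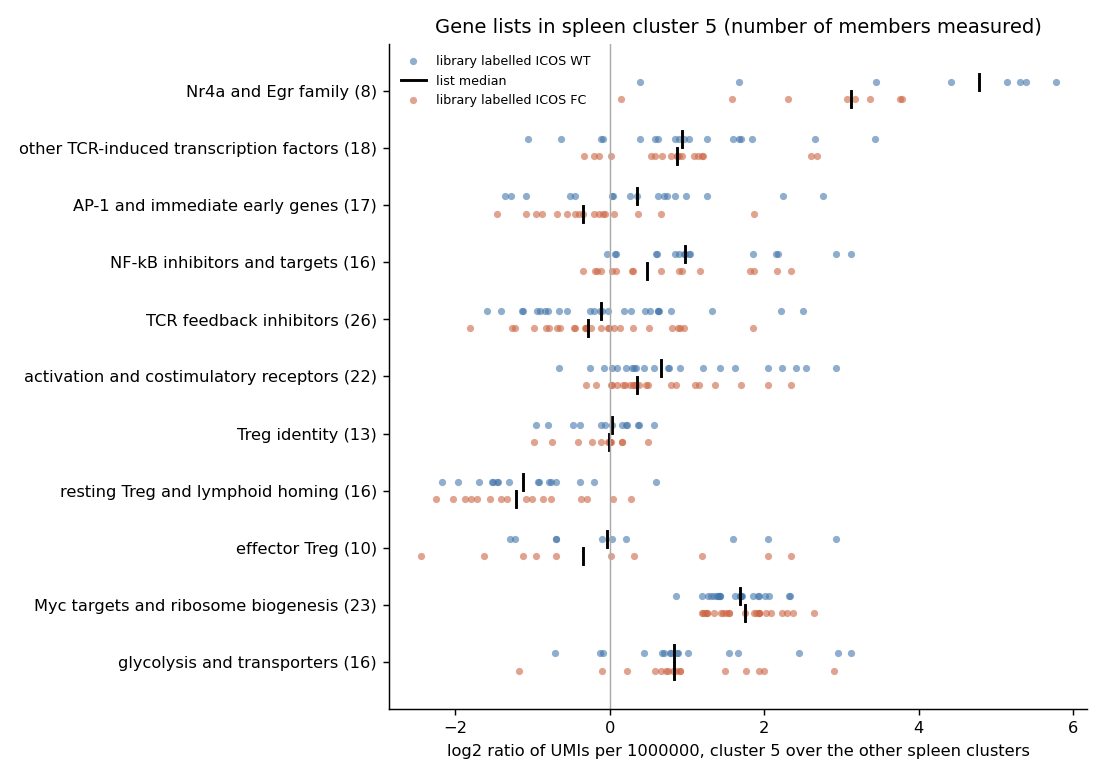
Log2 ratio of CPM in cluster 5 over the other spleen cells for the tested members of 11 gene lists (1 point per gene and library) with list medians. The Nr4a and Egr list (medians 4.78 and 3.12) and the Myc and ribosome list (1.69 and 1.76) lie above 0, and the resting list (-1.12 and -1.21) lies below it.

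Of the Treg identity genes, 0 of 13 passed in either direction against the other spleen cells, and the medians were 0.03 and -0.01. Ikzf2, which encodes the Treg factor Helios, was at 737 and 811 CPM against 721 and 800. The pooled rest included cluster 4, which held 2.17 and 6.38 CPM of Foxp3. Cluster 1 taken alone was above cluster 5, with 1814 and 1704 CPM of Ikzf2 and 75.2 and 83.5 of Foxp3. Izumo1r was at 584 and 676 CPM against 1469 and 1682 in cluster 1, and Nrp1 at 56.5 and 92.0 against 265 and 271. Il2ra went the other way in the library labelled ICOS WT, at 206 against 182 CPM. Foxp3 was at 49.2 and 35.8 CPM against 53.5 and 60.5, and a Foxp3 UMI was found in 52 of 192 (27.1%) and 48 of 228 (21.1%) cells. Among cells with 3 or more regulators, 15 of 58 and 5 of 39 had a Foxp3 UMI. In the library labelled ICOS WT, Nr4a1 was at 280 CPM in cells with a Foxp3 UMI and 257 in those without, and Egr3 at 222.5 and 188. In the library labelled ICOS FC the levels with a Foxp3 UMI were the lower ones, at 90.1 against 176 CPM for Nr4a1 and 45.0 against 113 for Egr3. Ncl was higher with a Foxp3 UMI under both labels, at 1713 against 1582 CPM and 2100 against 1710 CPM. Absence of a UMI at this depth does not show absence of the transcript.

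Markers of other cells were present at low sums. The 8 general T cell genes summed to 4853 and 4932 CPM, against 5236 and 5428 outside the cluster. The B cell list summed to 404 and 122 CPM against 68.8 and 86.7, with 2 and 4 of its 12 members at 0. Cd74 alone gave 210 and 99.1 CPM of these sums, and cluster 1 held 180 and 158 CPM of Cd74. In the library labelled ICOS WT 356 of the list's 665 UMIs came from 1 cell, and the sum was 188 CPM without that cell. That cell had 28267 UMIs, 79 of H2-Aa (a class II antigen presentation gene), 14 of Cd3e and UMIs of all 4 regulators. The CD8 T and natural killer list summed to 161 and 173 CPM against 229 and 273, the conventional CD4 T list to 229 and 210 against 358 and 311, and the myeloid list to 120.4 and 113 against 119.5 and 133. Cst3 gave 109 and 104 CPM of the myeloid sums. Cluster 4 in the pooled rest held 394 and 422 CPM of Igfbp4 and 384 and 293 of Dapl1, both conventional CD4 T genes. Cluster 1 alone held less of them than cluster 5, with 7.28 and 11.6 CPM of Igfbp4 against 58.4 and 28.1. Dapl1 was at 3.15 and 3.62 CPM there against 39.5 and 16.7, and Cd40lg at 25.7 and 14.3 against 57.8 and 24.5. Tnfsf8 of that list went the other way, at 125 and 187 CPM in cluster 1 against 65.1 and 114. The list for NKT and innate-like T cells summed to 66.3 and 26.9 CPM against 15.3 and 9.40. Cd160 gave 46.2 and 11.9 CPM of these sums, with 26.0 and 7.04 CPM in cluster 1. Platelet genes were at 0 in both libraries. Cells with more than 20000 UMIs were 7 and 5 in cluster 5 and 10 in all other spleen cells together. Removal of doublets is not named in the sources used here and no caller was run, and the part of doublets in these values was not tested.

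Between the libraries, the regulators within cluster 5 were lower under the label ICOS FC. Of 5290 tested genes, 132 (2.5%) were higher and 150 (2.84%) lower in the library labelled ICOS FC, by at least 1.5-fold with a counting interval clear of equality. These counts moved with the processing, to 134 and 283 when the CPM of each cell was averaged, 115 and 254 with the deepest 5% of cells removed, and 12 and 49 with cells thinned to 2000 UMIs. In the Nr4a and Egr list 0 of 8 were higher and 6 lower, and the list's median log2 ratio was -0.86 against -0.003 over all tested genes. The log2 ratio was -0.78 (-1.004 to -0.55) for Nr4a1, -1.05 (-1.33 to -0.78) for Egr3, -0.77 (-1.10 to -0.44) for Egr2, -1.13 (-1.498 to -0.77) for Nr4a3, -1.28 (-1.98 to -0.63) for Nr4a2 and -0.95 (-1.16 to -0.73) for Egr1. Over all spleen cells outside cluster 5 the ratio had the other sign, at 0.62 for Nr4a1, 0.55 for Egr3, 0.47 for Egr2 and 0.81 for Nr4a3. Among clusters 0 to 4 it was negative for Egr2 in clusters 0 and 3 (-0.38 and -1.19) and for Egr3 in cluster 3 (-0.61). In the cells of cluster 1 with the coarser number 2 it was 0.17 for Nr4a1, 0.19 for Egr3, 0.08 for Egr2 and 0.03 for Nr4a3. Every interval of these last 2 sentences spanned equality. The difference between the clusters was not tested. In the other spleen cells 34 of 5091 genes (0.668%) were higher and 14 (0.275%) lower, and 11 of these 34 (of the 132 in cluster 5) and 8 of these 14 (of the 150) were called in the same direction in cluster 5.

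The smaller share of subset 2 in the library labelled ICOS FC moved with this difference, and its part was not tested. Within subset 2 the ratios were -0.39 (-0.66 to -0.13) for Nr4a1, -0.73 (-1.03 to -0.43) for Egr3, -0.65 (-1.05 to -0.27) for Egr2 and -0.85 (-1.34 to -0.38) for Nr4a3. Within subset 5 they were -0.93 (-1.39 to -0.48) for Nr4a1, -1.19 (-2.08 to -0.36) for Egr3, 0.00 (-0.73 to 0.74) for Egr2 and -1.10 (-1.70 to -0.52) for Nr4a3. In the 52 and 48 cells with a Foxp3 UMI the ratios of these 4 genes ran from -2.31 for Egr3 to -1.64 for Nr4a1. The gap was smaller in the 140 and 180 cells without one, at 257 and 176 CPM for Nr4a1 and 188 and 113 for Egr3. Egr2 was at 106 and 80.6 CPM in the cells without one, and Nr4a3 at 117 and 62.3. The ratios over cluster 5 were also taken without the single cell with most UMIs of each gene in each library. These ratios were -0.78 for Nr4a1, -1.04 for Egr3, -0.78 for Egr2 and -1.26 for Nr4a3.

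The other lists of receptor signalling were mixed between the libraries. Of 10 chemokine and cytokine genes 5 were higher and 3 lower under the label ICOS FC, with a median of 0.34. Without the cell with most UMIs of each gene in each library, 2 of 7 tested were higher and 3 lower, with a median of -0.17. Of 22 activation and costimulatory receptor genes 2 were higher and 4 lower, with a median of -0.10. Tnf was at 102 and 46.0 CPM, a log2 ratio of -1.14 (-1.55 to -0.74), with -1.21 in subset 2, -1.10 in subset 5 and -0.03 outside the cluster. Irf8 was at 125 and 59.7 CPM (-1.07, -1.43 to -0.72), with -0.99 (-1.42 to -0.56) in cluster 1 and -0.24 over all other spleen cells, and Myc at 134 and 78.2 (-0.77, -1.10 to -0.46). Cd40lg was at 57.8 and 24.5 CPM (-1.24, -1.80 to -0.70). The list of other receptor-induced factors was split, with 3 of 18 higher, 3 lower and a median of 0.08. Rel fell on the lower side with Irf8 and Myc, and Irf4 on the higher side at 0.63 (0.23 to 1.03). Over all other spleen cells Irf4 stood at 0.61 (0.36 to 0.86). Of the NF-kB list 0 of 16 were higher and 3 lower, namely Nfkbid, Nfkbiz and Icam1. Of the Myc target and ribosome biogenesis genes 1 of 23 was higher and 0 lower, with a median of 0.10, and Ncl stood at 0.16 (0.08 to 0.23).

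Icos, Lag3, Pdcd1, Jun and S100a4 differed in the same direction in the rest of the spleen. Icos was higher under the label ICOS FC by 1.02 (0.78 to 1.27) in cluster 5 and by 1.22 outside it, with 0.42 (-0.07 to 0.90) in subset 2 and 1.36 (1.06 to 1.67) in subset 5. Lag3, an inhibitory receptor gene, was at 31.0 and 74.7 CPM in cluster 5 (1.27, 0.79 to 1.77) and 14.3 and 47.4 elsewhere (1.73). Pdcd1, which encodes PD-1, was lower, at 94.9 and 38.8 CPM (-1.29, -1.73 to -0.86) and 43.7 and 21.5 elsewhere (-1.02). Jun was at 40.1 and 98.0 CPM (1.29, 0.87 to 1.72) and 85.2 and 190 elsewhere (1.16). S100a4 was at 108 and 28.1 CPM (-1.95, -2.44 to -1.48), with -0.79 outside the cluster and 28.7% of its UMIs in the library labelled ICOS WT in 1 cell. Among Treg identity genes 1 of 13 passed, the coreceptor gene Nrp1 at 56.5 and 92.0 CPM (0.70, 0.32 to 1.09), while cluster 1 held 265 and 271 CPM of it. Foxp3 stood at -0.46 (-0.97 to 0.04), against 0.18 (0.07 to 0.28) outside cluster 5, and the difference was not tested.

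A part of the called genes rested on few cells. Of the 282, 10 had most of the higher library's UMIs in 1 cell, 5 in each direction. Ccl3 was at 0 UMIs in the library labelled ICOS WT, which allows up to 1.82 CPM (3 counts of that library's cluster 5 total), and its 65.1 CPM in the other came from 1 cell. Mki67 had 9 and 46 UMIs, 30 of the 46 in 1 cell. H2-Aa was at -4.55 with 79 of 92 UMIs in 1 cell, and Mmp10 had 38 UMIs in 1 cell and 0 in the other library. Fos did not pass in all cells, at -0.05 (-0.46 to 0.36), and 56 of its 103 UMIs in the library labelled ICOS WT were in 1 cell; without the cell with most UMIs in each library it was 0.85. Without such a cell for each gene, 120 of 5060 genes (2.37%) were higher and 142 (2.81%) lower, and 108 of the 120 (of the 132 in all cells) and 123 of the 142 (of the 150) were called in all cells too.

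**Figure D5:**
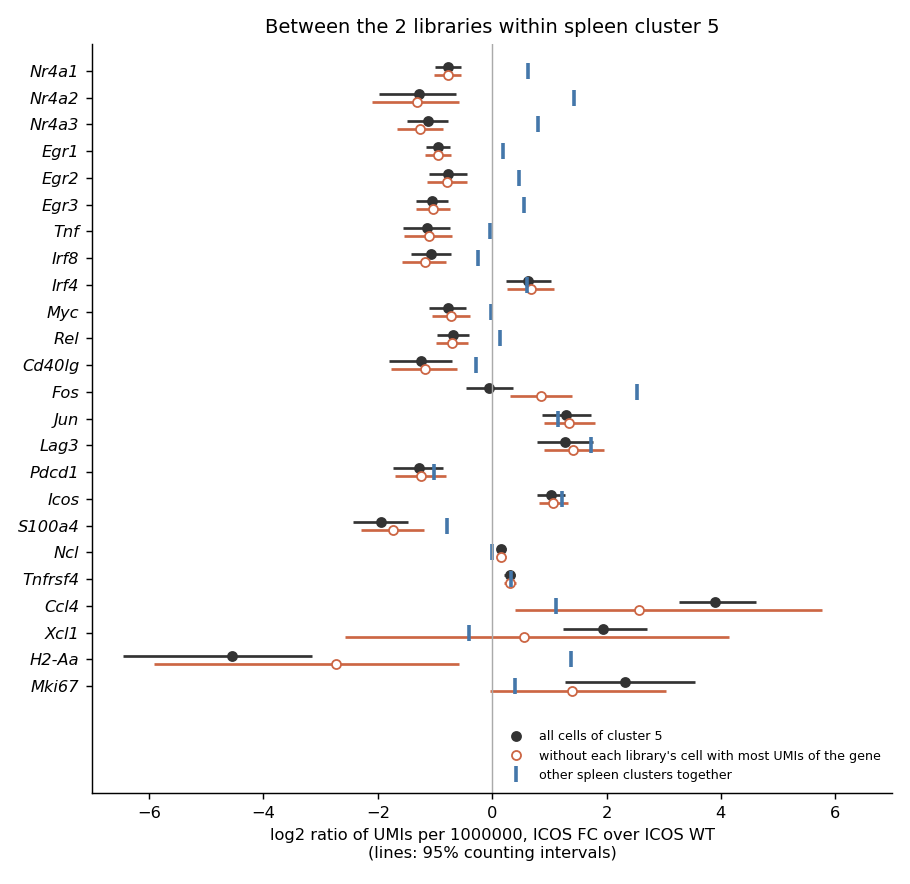
Log2 ratio of CPM, library labelled ICOS FC over library labelled ICOS WT, in cluster 5 for 24 genes, with 95% counting intervals for all cells and, beside them, without the cell with most UMIs of each gene in each library; ticks mark the other spleen cells. Nr4a1, Nr4a2, Nr4a3, Egr1, Egr2 and Egr3 lie below 0 in both versions, while Ccl4 goes from 3.90 to 2.56 once 1 cell of each library is left out.

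The LN libraries, whose cells took no part in the spleen clustering, had the highest levels of the regulator and the growth genes in different clusters. LN cluster 7 (66 and 57 cells) had 259 and 342 CPM of Nr4a1, 427.5 and 346 of Egr3, 255 and 156 of Egr2 and 135 and 176 of Nr4a3, and in each library 43.9% of its cells had 3 or more of the 4. LN cluster 4 (138 and 217 cells) had 41.0 and 51.9 CPM of Nr4a1 and 14.7 and 10.7 of Egr3. For Ncl the order was reversed, at 2562 and 2692 CPM in LN cluster 4 and 753 and 774 in LN cluster 7, and for Tnfrsf4 likewise at 2294.5 and 3217 against 702 and 926. LN cluster 7 also held 336 and 295 CPM of Cd8b1, a CD8 T cell gene at 35.0 and 27.6 CPM over all LN cells, and 45.7 and 28.7 CPM of Foxp3 against 72.2 and 70.7. Of the LN cells with 3 or more regulators, 29 of 46 and 25 of 60 were in that cluster, and 10 and 19 were in LN cluster 4, where 26.1% and 25.8% of cells had an Nr4a1 UMI. The LN and spleen libraries differed in tissue, in oxazolone and in clustering, which cannot be told apart here.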

How the data were processed

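Gene expression was measured in single sorted Treg cells from 4 libraries, 1 per group. The submitters' processing notes name the build GRCm38.p6 (mm10), Seurat 3.0, Cell Ranger 4.0.0 and R 3.6.1, without roles; the sources used here do not give the annotation, the cell filters or any doublet removal. Each deposited expression value was, by its own range, a natural log of UMIs scaled to 10000 for each cell after adding 1. The authors also deposited each cell's UMI count, its number of genes, its percent of mitochondrial counts and its cluster number. The deposited library column reads Control and KO, taken as ICOS WT and ICOS FC from the words alone.

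Log values were turned back into UMIs with each cell's deposited count. All of the 17846401 spleen and 8798056 LN values were whole within 0.001, and the sums matched the deposited totals in 10912 and 3963 cells, which is all of them. UMIs were summed over cells and divided by their total to give CPM. Ratios of CPM carry exact conditional Poisson intervals at 95% and shares carry Clopper-Pearson intervals; both cover counting error only and treat UMIs as independent, so they are too narrow for genes whose UMIs sit in few cells. A gene was tested at 20 CPM or more. It passed at 2-fold in both libraries for cluster 5 against the rest or for the subsets, and at 1.5-fold for the library labelled ICOS FC against ICOS WT. The 1.5-fold rule was tried on simulated counts drawn as independent Poisson values, the model that the intervals assume. Such counts cannot show how the rule behaves where UMIs sit in few cells. The 2-fold rule was not simulated.

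The members, the gene lists and the rules were chosen with earlier results of these data known. Named genes were the 7 markers, Icos, Foxp3, the highest and lowest genes of each comparison by the interval bound nearest equality, the same for each list, and list members of at least 100 CPM in cluster 5. Gene positions are from GENCODE on GRCm38. Tools were Python 3.11.15, numpy 2.4.6, scipy 1.17.1, pandas 2.3.3 and matplotlib 3.10.9. Alternatives were another scaling, other minimum levels and folds, cell filters, thinning to 2000 UMIs and, added after seeing the data, leaving out single cells or taking subsets. Phase scores and embedding coordinates were not used, and a gene that the rule names is not reported here.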

Additional observations from a re-analysis of the deposited data

How the results depend on the processing

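No library was left out, since each group was 1 library. No paired analysis was possible because the groups held 1 library each and no result came from a test. Of the values for named genes under the alternatives, 1904 of the cluster 5 contrast and 651 of the contrast between libraries stayed inside the counting interval, 344 and 106 left it, and 2 and 18 changed sign.

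For cluster 5 against the rest, a minimum of 50 CPM gave 238 higher and 96 lower genes and 1.5-fold gave 926 and 573. Genes lower were 282 with totals lacking ribosomal protein and mitochondrial genes, 108 with the deepest 5% of cells removed and 101 with cells thinned to 2000 UMIs. Leaving out those 5% turned Cd160 to -0.068 and Stmn1 to -0.19 in the library labelled ICOS FC.

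For the library labelled ICOS FC against ICOS WT, higher and lower genes were 225 and 272 at 5 CPM, 38 and 57 at 50 CPM, 32 and 42 at 2-fold, and 12 and 49 when thinned, which leaves fewer UMIs. Genes lower were 283 by the mean of each cell's CPM (134 higher) and 254 with the deepest 5% of cells removed; the cause was not tested. Leaving out those cells turned Cd74 to 0.12, Cxcl10 to -0.083, H2-Aa to 0.75 and H2-Eb1 to 0.75. Cells with a Foxp3 UMI gave Cd74 0.25, Ctsl 0.63, H2-Aa 0.22 and Mki67 -1.37. Subset 2 alone gave Bhlhe40 -1.47, Icam1 0.34, Nkg7 1.34, Slc7a5 0.34 and Tyms -1.66; subset 5 alone gave Birc5 -0.043, Dapl1 0.11, Egr2 0.00032 and Igfbp4 0.32; and leaving out the 12 cells with the coarser number 8 gave Tyms -0.040.

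The share of cluster 5 in the library labelled ICOS WT came to 2.78% with the deepest 5% of cells removed, 5.01% among cells with a Foxp3 UMI and 4.51% without cluster 4. In the library labelled ICOS FC it came to 3.11% with those removed.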
